A study of Mus musculus with 96 samples.

Results

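The genes described here are 10 nuclear genes for chaperones and proteases that work inside mitochondria, namely Hspd1, Hspe1, Hspa9, Trap1, Dnaja3, Lonp1, Clpp, Clpx, Yme1l1 and Afg3l2. They were chosen by symbol as components of the mitochondrial unfolded protein response, each symbol matched 1 row, and they are 10 of the 54150 rows of the gene table, 4 of which are transgenes. All 10 had enough reads to be tested in every comparison below. The 96 RNA-seq samples came from C2C12, a mouse myoblast line that can be driven to fuse into myotubes, and covered 35 conditions with 3 samples each or, for NDI1 cells, chloramphenicol experiments and GFP myotubes, 2 each.

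Of the 96 samples, 45 were proliferating myoblasts, 9 were post-mitotic cells taken on day 1 after 24 h in low serum, and 42 were myotubes after 4 days in low serum. All myoblasts carried a lentiviral transgene induced by doxycycline at 300 ng/ml. The transgene was luciferase (Luc, the control), LbNOX (a bacterial enzyme that oxidises NADH to NAD+ with oxygen, in the cytosol), mitoLbNOX (the same enzyme sent to mitochondria) or NDI1 (a yeast NADH dehydrogenase that stands in for complex I). Myoblasts received DMSO, the complex I inhibitor piericidin (0.5 µM), the complex III inhibitor antimycin (0.5 µM) or the ATP synthase inhibitor oligomycin (1 µM) for 10 h. NDI1 cells had DMSO and piericidin only, and mitoLbNOX cells had no oligomycin. In a separate experiment Luc and LbNOX myoblasts received DMSO or chloramphenicol, an inhibitor of mitochondrial translation, at 20 µg/ml for 48 h. Uridine, which the study used at 200 µM, was present with chloramphenicol, and whether the DMSO cells of this experiment received it is not given in the sources used here. Day 1 cells without a transgene received DMSO, piericidin or oligomycin. Untransduced myotubes received DMSO, each inhibitor, the uncoupler BAM15 (0.5 µM), oligomycin with piericidin, oligomycin with BAM15, or DMSO or oligomycin in 5% oxygen. Other myotubes carried an adenovirus for GFP, or for GFP with LbNOX, and received DMSO, piericidin or oligomycin. The labels do not say whether replicates were separate cultures, so p-values measure the spread between these samples only.

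Proteins made in the cytosol enter mitochondria unfolded, through a motor that has the Hsp70 protein mortalin at its core, and many are then folded in the barrel formed by Hsp60 and its lid Hsp10. Proteases that use ATP remove what is damaged or left over, in the matrix (Lon and ClpXP) and at the inner membrane (the AAA proteases). When mitochondrial proteins misfold or when the compartment fails to import or translate, cells can raise these genes, a program called the mitochondrial unfolded protein response. In mammals it overlaps with the integrated stress response (ISR), in which phosphorylation of eIF2α lowers general translation and raises the transcription factors ATF4, ATF5 and DDIT3.

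By function, Hspd1 (Hsp60), Hspe1 (Hsp10), Hspa9 (mortalin), Trap1 (the mitochondrial Hsp90) and Dnaja3 (an Hsp40 partner of mortalin) are chaperones. Lonp1 (the Lon protease), Clpp (the proteolytic chamber of ClpXP), Clpx (its unfolding ATPase), Yme1l1 (an AAA protease that faces the intermembrane space) and Afg3l2 (an AAA protease that faces the matrix) are proteases or their parts. Hspd1 and Hspe1 lie head to head on chromosome 1 of GRCm38, at chr1:55077835-55088243 on the minus strand and chr1:55088132-55091307 on the plus strand. The annotated genes overlap by 112 bases, and since the libraries did not keep strand, reads from the overlap cannot be assigned to either gene by strand. Lonp1 (chr17:56614297-56626887, minus) and Clpp (chr17:56990305-56996188, plus) share chromosome 17. Trap1 (chr16:4039971-4077827, minus) and Dnaja3 (chr16:4639989-4707695, plus) share chromosome 16.

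Promoter windows of 300 bases were found in RefSeq (GRCm38.p6) for 8 of the 10 genes, 9 windows in all because Hspd1 has 2. Hspa9 and Afg3l2 had no entry. Short stretches are shown for the Hspd1 and Hspe1 pair, because both genes start there, for Lonp1, because it changed most in myoblasts, and for Trap1, because its window holds the same short motif as that of Lonp1. Capitals mark letters that were searched on both strands. These were GAANNTTC, a core of the heat shock element bound by HSF1, TGACGTNA, a cyclic-AMP-response-type element of the kind bound by ATF and CREB proteins, and CACGTG, an E-box.
Hspd1 and Hspe1, chr1:55088056-55088085, plus strand: ccgttctaGAACCTTCcggaaggccccgcg
Lonp1, chr17:56626903-56626963, minus strand: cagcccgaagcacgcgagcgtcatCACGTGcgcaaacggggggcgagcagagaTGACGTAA
Trap1, chr16:4077830-4077887, minus strand: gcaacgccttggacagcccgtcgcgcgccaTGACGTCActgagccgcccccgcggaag

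The first stretch starts 92 bases before the Hspe1 start and lies inside a first exon of an Hspd1 transcript. GAANNTTC was present in 7.86% of 32851 promoter windows of the same length and in 2 of the 9 member windows, which were those of Hspd1 and Hspe1 and share this DNA. TGACGTNA, which was added to the search after the sequences had been seen, was present in 2.93% of all windows and in 2 member windows, those of Lonp1 and Trap1. CACGTG was in 7.15% of all windows and in 2 member windows, Hspd1 and Lonp1. TGATGNAA, the form of element bound by ATF4 with C/EBP partners, was in 3.97% of all windows and in 0 of the 9 member windows. CCAAT was in 37.4% of all windows and in 4 member windows, and the palindromic core of the NRF1 site was in 4.6% and in 2. These matches describe letters in the windows and were not tested as binding sites.

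Libraries held 6458295 to 15364638 counts (median 10331177). The muscle actin Acta1 had a median of 23.7 CPM (counts scaled to library size) in myoblasts, 6220 in day 1 cells and 7860 in myotubes. The proliferation gene Mki67 had 80.5, 14.5 and 8.31, in the order that the labels give. Of the other listed markers, Ccnb1, Top2a, Ckm, Myh3, Tnnt3 and Tnnc2 ran in the same order as these. The muscle transcription factors did not, with Myod1 at 101, 214 and 152, Myf5 at 9.58, 24.3 and 14.2, and Myog at 0.307, 1540 and 737. The adipocyte gene Adipoq reached 0.145 CPM at most. The share of counts from mitochondrially encoded genes ran from 2.03% to 3.6%. The Luc DMSO samples at 10 h, the controls of the 10 h Luc comparisons and of the differences of responses from Luc at 10 h, had the highest mean of the myoblast groups, 3.14% ± 0.403 (SD, n = 3), against 2.12% to 2.54% in the Luc groups treated for 10 h and 2.37% to 2.41% in the other DMSO groups at 10 h. The part of this in the members' values was not tested. A position code in the labels reads like a well of a 96-well plate, and 36 samples lay in outer and 60 in inner wells by that code. Within conditions, 2422 of 13353 genes (18.1%) differed between outer and inner wells in edgeR at an adjusted p under 0.05. Of all 13353 genes, called or not, 154 had a difference of 2-fold or more. Among the members Afg3l2 was the largest case, at a log2 difference of -0.69 ± 0.10 (SE, adjusted p = 1.05e-07) in outer wells. Lonp1 had -0.18 ± 0.04 (adjusted p = 0.000334), and the other members lay between -0.02 and 0.09. Hspa9, Yme1l1, Clpx, Trap1 and Hspd1 were also called, each slightly higher in outer wells (adjusted p = 1.42e-05, 0.00169, 0.0229, 0.00847 and 0.00712), and Hspe1, Dnaja3 and Clpp were not. All 3 Luc DMSO samples, both NDI1 DMSO samples and all 9 day 1 samples were outer. All 3 Luc antimycin samples and both NDI1 piericidin samples were inner. Afg3l2 is therefore described apart from the rest.

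**Figure D1:**
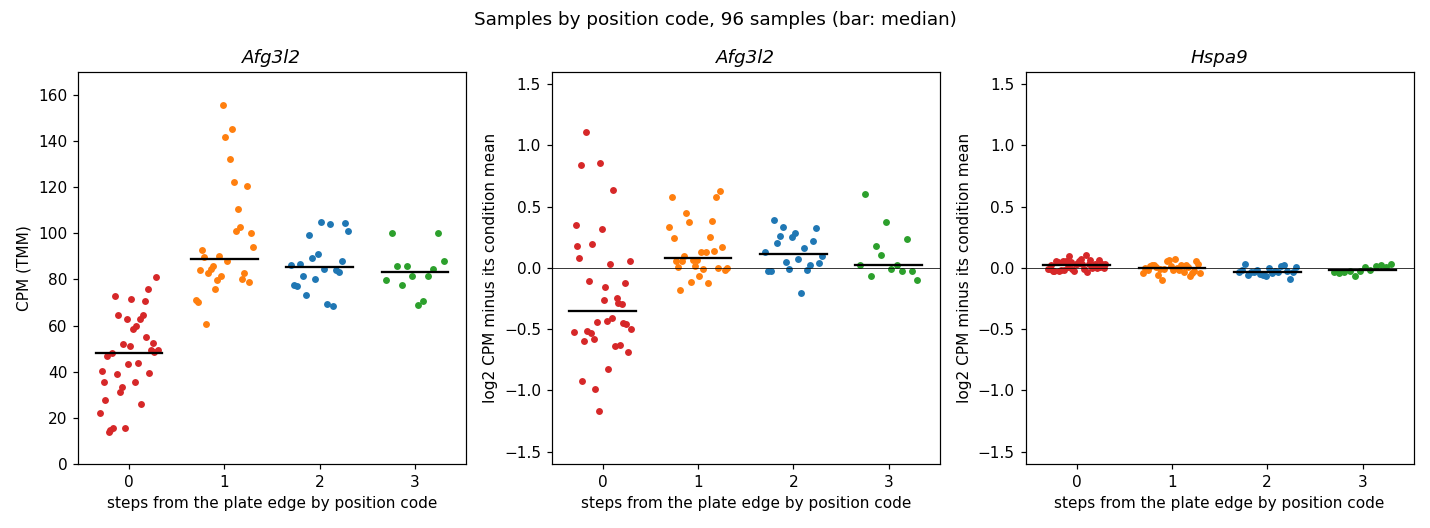
Afg3l2 level in CPM, and deviation of Afg3l2 and Hspa9 from the mean of each condition on the log2 scale, against steps from the plate edge by the position code; points are samples and bars are medians. Afg3l2 had a median of 48.3 CPM in the 36 samples at the edge and of 83.1 to 89.0 CPM 1 or more steps inside, while the Hspa9 points stay close to 0 at every step.

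In Luc myoblasts with DMSO the chaperonin pair was the most abundant of the 10 per unit of transcript length, with 327 CPM per kb for Hspd1 and 315 for Hspe1. Hspa9 followed with 210 CPM per kb. The others ran in order from Clpp (72.3), Trap1 (45.8), Yme1l1 (40.7) and Dnaja3 (30.2) to Clpx (13.8), Afg3l2 (13.1) and Lonp1 (11.7 CPM per kb). All of these samples were outer wells, where Afg3l2 and Lonp1 were lower and Clpx slightly higher, so the order among these genes is not read. With oligomycin the order changed. Hspa9 reached 535 CPM per kb beside 530 for Hspd1, and Dnaja3 at 78.3 passed Trap1 (74.5). Lonp1 rose from 11.7 to 62.6, above Yme1l1 (35.7). Over all 35 conditions the condition means of Hspd1 spanned 9.23-fold, those of Lonp1 8.62-fold and those of Hspe1 4.84-fold, while those of Clpx spanned 1.65-fold and those of Yme1l1 1.79-fold.

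Each inhibitor raised most of the 10 genes in Luc myoblasts. With piericidin 9 members rose and 0 fell, where 61.7% of all 11978 genes tested were called, 30.9% higher and 30.8% lower. With antimycin 8 rose and 0 fell (63.2% of genes called, 32.1% higher and 31.1% lower). With oligomycin 8 rose and 1 fell (50.8% called, 24.5% higher and 26.3% lower). The median log2 fold change of the members was 0.69, 0.62 and 0.71 in this order, and that of all genes with piericidin was -0.00. The 3 comparisons share the same 3 DMSO samples.

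Hspa9 responded alike to the 3 inhibitors. Its level was 639, 631 and 655 CPM with DMSO, 1630, 1776 and 1676 with piericidin, 1654, 1666 and 1599 with antimycin, and 1695, 1636 and 1560 with oligomycin. Every treated sample was above every control, and the treated groups overlapped each other. The log2 fold changes were 1.44 ± 0.04 (SE, adjusted p = 1.99e-23), 1.40 ± 0.04 (3.32e-23) and 1.36 ± 0.04 (1.51e-22). The direct comparison of antimycin with piericidin gave -0.04 ± 0.04 and that with oligomycin 0.04 ± 0.04, neither called.

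Dnaja3 encodes an Hsp40 co-chaperone of mortalin and rose with it. It had 76.0, 85.1 and 78.8 CPM with DMSO, 164, 163 and 158 with piericidin, 157, 156 and 168 with antimycin, and 217, 202 and 203 with oligomycin. The oligomycin samples stood above those of the other inhibitors without overlap. Its log2 fold changes were 1.05 ± 0.06 (adjusted p = 1.14e-15), 1.05 ± 0.06 (1.05e-15) and 1.39 ± 0.06 (2.28e-18), and antimycin was below oligomycin by -0.34 ± 0.06 (1.28e-05).

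Hspd1, the chaperonin subunit, rose with piericidin and oligomycin and less with antimycin. Its level was 819, 781 and 778 CPM with DMSO, 1115, 1182 and 1155 with piericidin, 848, 904 and 864 with antimycin, and 1319, 1300 and 1236 with oligomycin. The antimycin samples lay just above the controls and well below the other treated samples, and no groups overlapped. Against DMSO the log2 fold changes were 0.57 ± 0.04, 0.18 ± 0.04 and 0.71 ± 0.04, and antimycin was below piericidin by -0.39 ± 0.04 (adjusted p = 4.83e-10). Hspe1, the lid, had 0.42 ± 0.06, 0.15 ± 0.06 and 0.52 ± 0.06 in the same order, and antimycin was below piericidin by -0.27 ± 0.06 (0.00064). The antimycin calls of this pair are fragile, since without replicate 2 of every condition the adjusted p was 0.0868 for Hspd1 and 0.898 for Hspe1. Trap1 also rose, with 0.56 ± 0.05 for piericidin, 0.52 ± 0.05 for antimycin and 0.71 ± 0.05 for oligomycin, from a control range of 104.8 to 107.5 CPM.

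Among the proteases Lonp1 changed most. It had 32.5, 37.9 and 33.5 CPM with DMSO, 195, 179.8 and 208 with piericidin, 114, 115 and 124 with antimycin, and 189, 178 and 187 with oligomycin. The antimycin group stood between the controls and the other treated groups, with no overlap. The log2 fold changes were 2.52 ± 0.11 (adjusted p = 5.22e-18), 1.80 ± 0.11 (1.25e-14) and 2.42 ± 0.11 (2.29e-17). Antimycin was below piericidin by -0.72 ± 0.11 (2.87e-06). With a term for outer wells, Lonp1 had 2.41, 1.64 and 2.32.

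Clpp and Clpx form a single protease, and no test of the difference between them was run. Clpp had 72.5, 74.0 and 66.7 CPM with DMSO, 119.8, 125 and 118 with piericidin, 116, 121 and 103 with antimycin, and 83.5, 87.0 and 69.4 with oligomycin. The piericidin and antimycin samples were all above the controls, while the oligomycin samples overlapped them. Clpp rose by 0.80 ± 0.07 with piericidin (adjusted p = 4.87e-11) and 0.72 ± 0.07 with antimycin (5.34e-10), but only by 0.18 ± 0.07 with oligomycin (0.0343). This last call was lost without replicate 1 (0.207) or replicate 2 (0.21). Piericidin was above oligomycin by 0.62 ± 0.07 (3.35e-08). Clpx had log2 values of 0.14 ± 0.09, 0.19 ± 0.09 and 0.19 ± 0.09 with the 3 inhibitors, and passed the test with none of them.

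Yme1l1, the inner membrane protease, was the member whose direction depended on the inhibitor. Its level was 205, 175 and 195 CPM with DMSO, 219, 243 and 239.8 with piericidin, 167, 178 and 178 with antimycin, and 168, 175 and 160.4 with oligomycin. Only the piericidin samples all lay above the controls. It rose by 0.32 ± 0.07 with piericidin (adjusted p = 0.000271), had -0.09 ± 0.07 with antimycin (0.292) and fell by 0.17 on the log2 scale with oligomycin (0.0434). The fall was not called without replicate 1 or without replicate 3 (0.173 in both), nor the rise without replicate 2 (0.0602). Piericidin exceeded oligomycin by 0.50 ± 0.07 (1.64e-06).

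Over the direct comparisons in Luc myoblasts, antimycin was below piericidin for 4 members, Hspd1, Hspe1, Lonp1 and Yme1l1. It was above piericidin for 0 (37.2% of genes called, 19.3% higher and 17.9% lower). Against oligomycin, antimycin was higher for 1 member, Clpp, and lower for 5 (50% called, 26.1% higher and 23.9% lower). Piericidin was higher than oligomycin for Clpp and Yme1l1 and lower for Hspd1, Trap1 and Dnaja3 (39.2% called, 20% higher and 19.2% lower). The totals called in either direction lie near the shares of all genes and are not read as a result about the members.

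**Figure D2:**
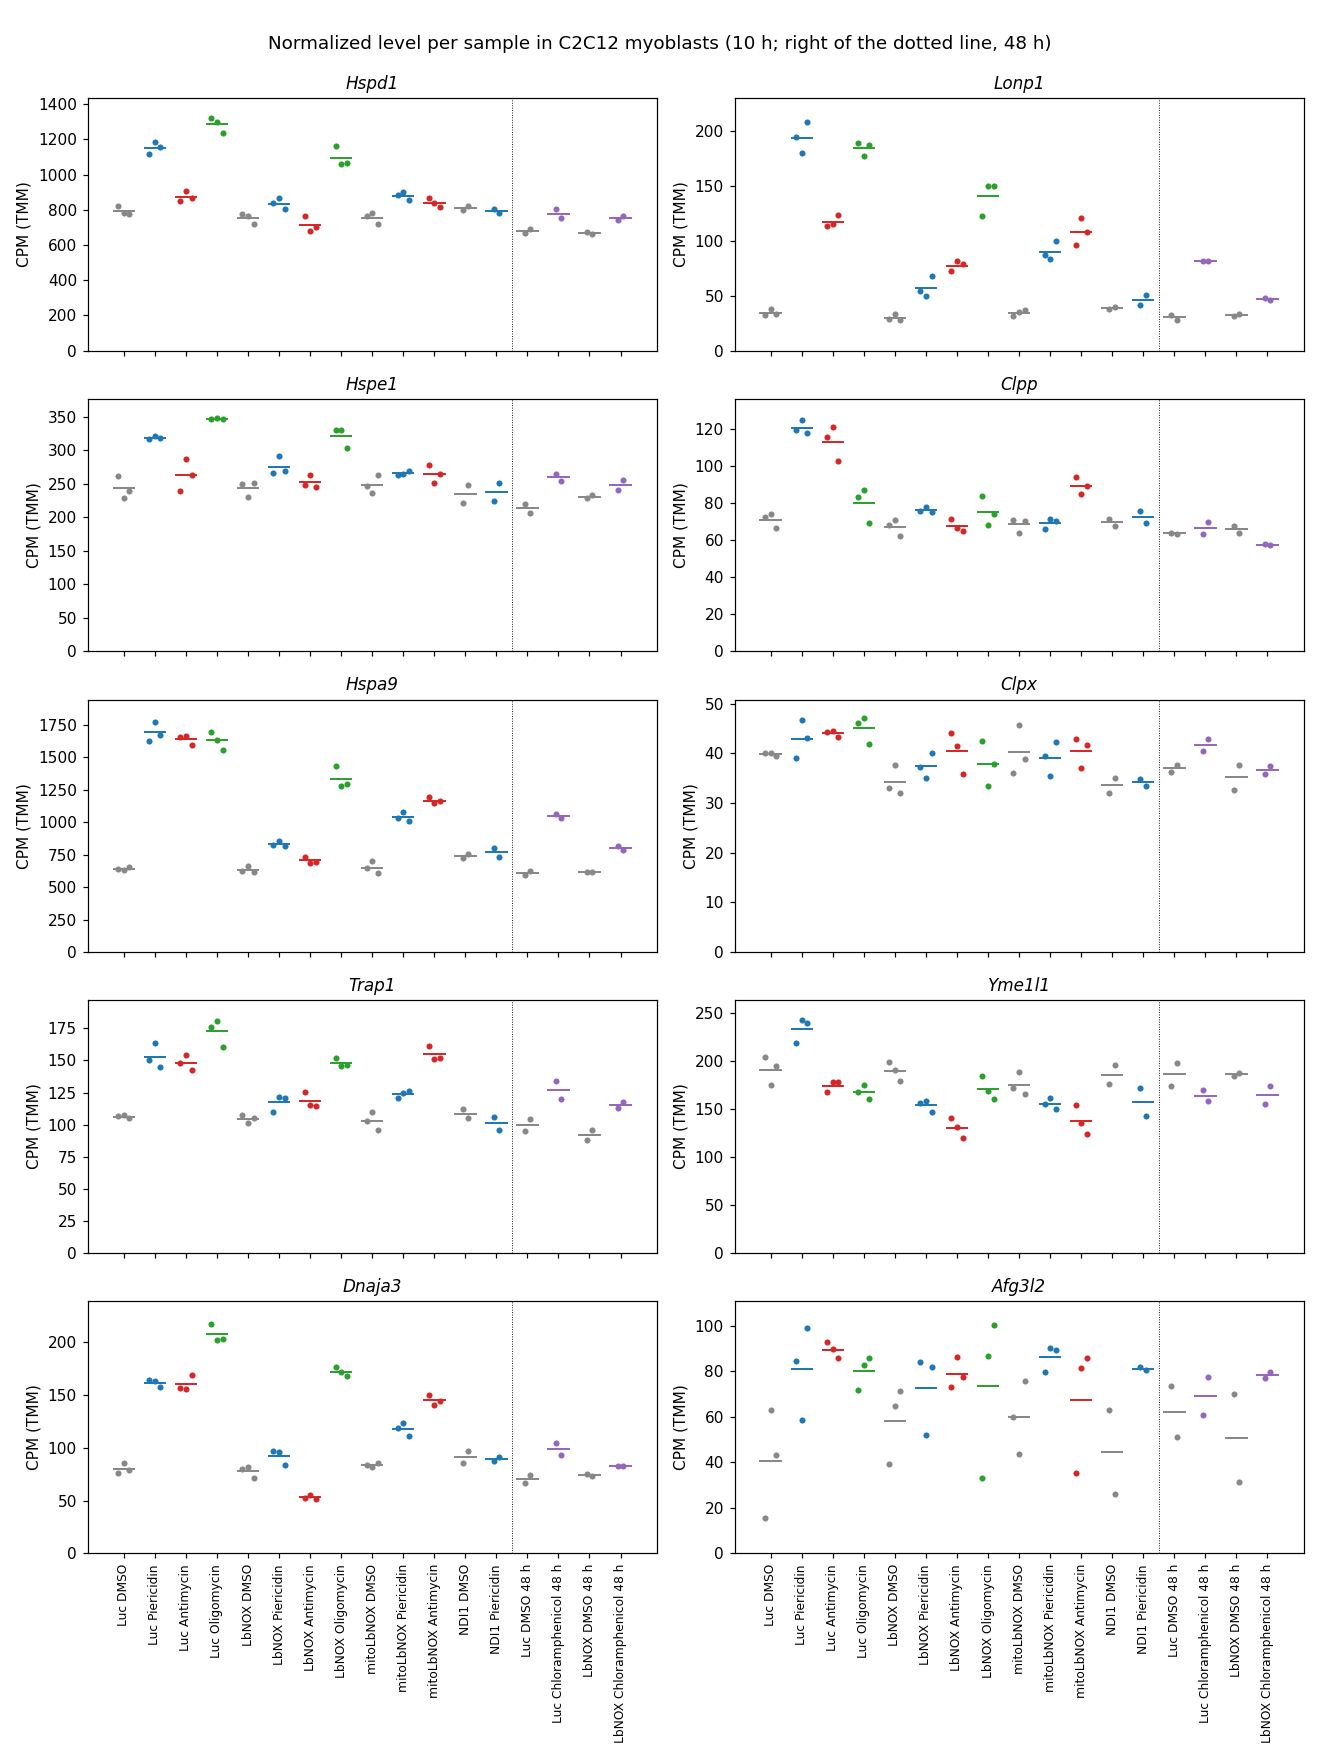
Level of each member in CPM (y axis, 1 panel per gene) in every sample of the 13 myoblast conditions at 10 h and, right of the dotted line, the 4 conditions at 48 h; points are samples. Lonp1 goes from 32.5 to 37.9 CPM in Luc cells with DMSO to at least 113.9 CPM with every inhibitor, while Clpx stays between 32 and 47.2 CPM throughout and Afg3l2 is spread widely within conditions.

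Afg3l2 values cannot be read without the position code. In Luc cells it had 15.5, 62.9 and 43.3 CPM with DMSO, 84.5, 58.5 and 99.1 with piericidin, and 92.9, 89.9 and 85.6 with antimycin. The controls were all outer wells and differed widely among themselves, and the piericidin group overlapped them. The log2 fold changes were 1.01 ± 0.38, 1.17 ± 0.38 and 0.98 ± 0.38 for the 3 inhibitors and all were called, but with a term for outer wells they were 0.53 (adjusted p = 0.154), 0.50 (0.213) and 0.53 (0.167). In myotubes the term acted the other way. Afg3l2 had 0.45 ± 0.25, 0.45 ± 0.25 and 0.27 ± 0.25 with piericidin, antimycin and oligomycin, none called, and with the term 0.45 (0.0141), 0.68 (0.000267) and 0.69 (0.000143). Without a filter on low counts, 25 of the 50 comparisons of Afg3l2 gained a call. The counts of members given here include Afg3l2 as fitted with the filter and without the term.

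LbNOX and mitoLbNOX were compared with Luc for each inhibitor the cells received. With DMSO alone, LbNOX and mitoLbNOX myoblasts differed from Luc myoblasts in 0 members by edgeR, with 2 and 0 at an unadjusted p under 0.05 and 0 in both by DESeq2 (for LbNOX 2.66% of genes called, 1.29% higher and 1.37% lower, and for mitoLbNOX 1.74%, 0.977% higher and 0.768% lower). NDI1 cells differed in 1, Hspa9, which was 0.20 ± 0.04 higher (4.58% called, adjusted p = 0.00367), a call lost without replicate 2 (0.184).

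In LbNOX cells piericidin raised 6 members and lowered 1, Yme1l1 (8.87% of genes called, 5.01% higher and 3.87% lower). Lonp1 rose by 0.96 ± 0.11, Hspa9 by 0.42 ± 0.04 and Dnaja3 by 0.27 ± 0.06. The calls for Hspe1 and Yme1l1 were lost whichever replicate was left out, and those of Trap1, Dnaja3 and Hspd1 with at least 1. Compared with Luc cells the response was lower for 8 members and higher for 0 (44.3% called, 22% lower). The difference was -1.55 ± 0.16 for Lonp1 (adjusted p = 2.19e-09), -1.02 ± 0.06 for Hspa9 (1.75e-15) and -0.78 ± 0.08 for Dnaja3 (5.46e-09).

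With antimycin LbNOX turned the Dnaja3 response around. Dnaja3 had 80.1, 82.0 and 71.1 CPM in LbNOX cells with DMSO and 52.8, 55.3 and 51.9 with antimycin, the lowest values of this gene in the 96 samples. The treated samples lay below the controls without overlap, a change of -0.51 ± 0.06 (adjusted p = 4.43e-08), and the difference from the Luc response was -1.55 ± 0.08 (1.22e-15). Hspa9 went from 628, 659 and 615 to 733, 689.6 and 697 CPM, a change of 0.19 ± 0.04 against 1.40 in Luc cells (difference -1.20 ± 0.06, 1.9e-17). Lonp1 kept most of its rise, from 28.8, 33.2 and 27.7 to 72.2, 81.6 and 78.8 CPM, or 1.41 ± 0.11. The difference of Lonp1 from Luc cells was -0.40 ± 0.16 (0.0363), a call lost without any single replicate number.

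Yme1l1 fell in the same cells, from 199, 191 and 179.7 to 141, 132 and 119.8 CPM, without overlap, by 0.50 on the log2 scale (1.33e-06). In LbNOX cells with antimycin 4 members rose, Hspa9, Trap1, Lonp1 and Clpx, and 2, Dnaja3 and Yme1l1, fell (46.1% called, 23.3% higher and 22.9% lower). The Clpx call was lost without replicate 1 (0.333) or replicate 3 (0.0855) and without a filter on low counts (0.181), and that of Trap1 without replicate 1 (0.073). Against Luc cells 7 members responded less and 0 more (51.5% called, 24.7% higher and 26.8% lower).

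Oligomycin raised 7 members in LbNOX cells and lowered 0 (35.2% called, 17.5% higher and 17.7% lower), with log2 fold changes of 2.26 ± 0.11 for Lonp1, 1.17 ± 0.06 for Dnaja3, 1.10 ± 0.04 for Hspa9 and 0.57 ± 0.04 for Hspd1. The Clpp call (0.19) was lost without replicate 1 (0.442) or replicate 3 (0.177). Only Hspa9 differed from the Luc response, by -0.26 ± 0.06 (7.98% called, 3.8% higher and 4.18% lower, adjusted p = 0.00273), and without replicate 2 this was not called (0.0933).

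In mitoLbNOX cells the responses to piericidin and antimycin were each compared with those in Luc cells. Piericidin raised 5 members in mitoLbNOX cells and lowered 0 (11.2% called, 6.37% higher), with 1.40 ± 0.11 for Lonp1 and 0.70 ± 0.04 for Hspa9. The response was lower than in Luc cells for 8 members (42.9% called, 21.4% lower), by -1.12 ± 0.16 for Lonp1 and -0.74 ± 0.06 for Hspa9. Antimycin raised 6 and lowered 1, Yme1l1 (47.7% called, 24.8% higher and 22.9% lower), with Hspa9 at 0.89 ± 0.04, Dnaja3 at 0.84 ± 0.06 and Lonp1 at 1.69 ± 0.11. Here 2 members responded less than in Luc cells, Hspa9 by -0.51 ± 0.06 and Clpp by -0.29 ± 0.10 (31.7% called, 15.4% higher and 16.3% lower), and the Clpp call was lost without any single replicate number. With the outer-well term 4 members were called, and with only the groups compared 1.

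In NDI1 cells piericidin changed 0 members by edgeR, with 1 at an unadjusted p under 0.05 and 0 by DESeq2, and 0.00835% of all genes. Lonp1 had 37.8 and 39.5 CPM with DMSO and 41.8 and 50.3 with piericidin, and Hspa9 had 727 and 758 against 801 and 735. The Hspa9 ranges overlapped and those of Lonp1 did not, with a log2 difference of 0.28 ± 0.14 (adjusted p = 0.58). Both NDI1 DMSO samples were outer wells and both NDI1 piericidin samples inner wells, so treatment and position cannot be told apart between these groups. Over all samples Lonp1 was lower in outer wells, at -0.18 ± 0.04. The response was lower than in Luc cells for 8 members (42.7% called, 21.5% lower), by -2.24 ± 0.18 for Lonp1 (1.14e-11), -1.36 ± 0.06 for Hspa9 (2.57e-17) and -1.05 ± 0.09 for Dnaja3 (1.29e-10).

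**Figure D3:**
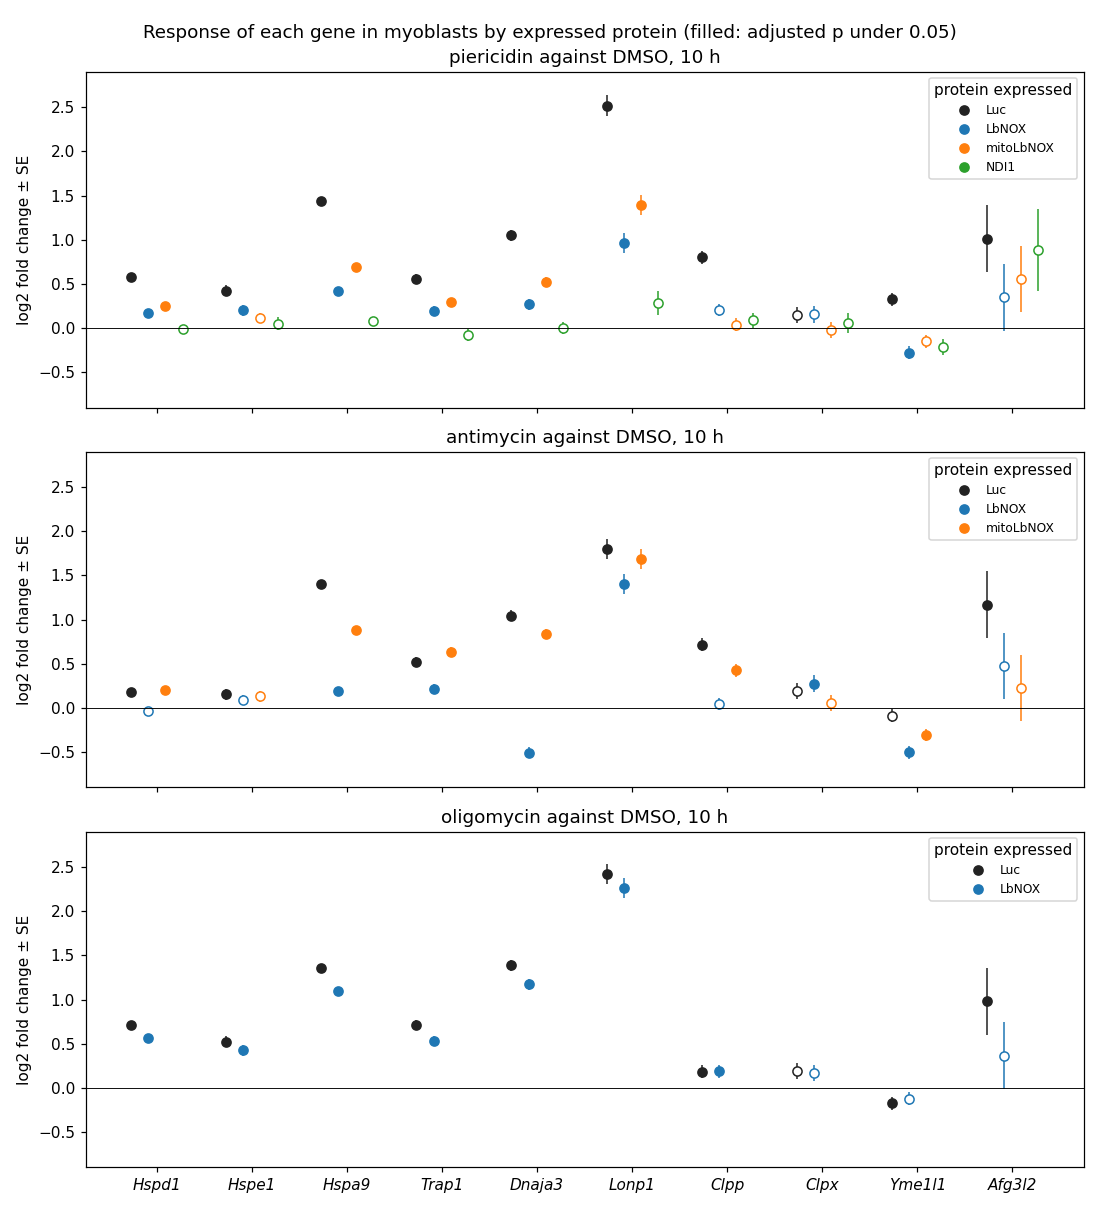
Log2 fold change against DMSO with its SE for each member (x axis), in panels for piericidin, antimycin and oligomycin, by transgene; filled points passed the adjusted p of 0.05. No NDI1 point with piericidin is filled, and Dnaja3 in LbNOX cells with antimycin is at -0.51 while the Luc and mitoLbNOX values are 1.05 and 0.84.

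The other genes of the pathway and of neighbouring stress programs were followed as lists. In Luc myoblasts with piericidin all 9 ISR markers rose, with a median log2 fold change of 3.76, led by Atf3 (7.33), Trib3 (5.26), Gdf15 (4.91) and Ppp1r15a (4.86). Of 6 stress transcription factors 5 were tested and all 5 rose, with Ddit3 at 4.60, Atf4 at 2.39, Atf5 at 2.24, Nfe2l2 at 0.49 and Hsf1, the heat shock factor, at 0.18. Antimycin and oligomycin also raised 9 of 9 markers and 5 of 5 factors, with Atf4 at 2.78 and 1.66. Atf5 was 0.45 lower on the log2 scale in outer wells, where the Luc DMSO samples lay.

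Of 21 other co-chaperones and import subunits, piericidin raised 10 and lowered 4, antimycin raised 9 and lowered 5, and oligomycin raised 10 and lowered 1. Over all genes 30.9%, 32.1% and 24.5% rose and 30.8%, 31.1% and 26.3% fell with the 3 inhibitors, and list counts here and for the groups that follow are read beside these shares. The nucleotide exchange factor Grpel2 rose by 1.15 and 1.44 with piericidin and antimycin, and Chchd4, the intermembrane space import receptor, by 1.14, 1.27 and 0.97 with the 3 inhibitors. Chchd4 was itself slightly lower in outer wells, at -0.15. The list genes called with a larger difference in outer wells were the import subunit Tomm40 (-0.82), the mortalin partner Dnlz (-0.74), the content gene Polg (-0.83), the ER chaperones Dnajb11 (-1.30) and Sdf2l1 (-0.24), the transcription factor Atf5 (-0.45) and the ISR marker Atf3, which was higher (0.18), and they are in the list counts, where the part of well position was not tested. These 7 were chosen after their values were seen. Of 16 other mitochondrial proteases and scaffolds 8, 9 and 9 rose and 1, 2 and 1 fell, with the rhomboid protease Parl at 0.67, 0.61 and 0.60.

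Chaperones of other compartments were followed in the same way. Of 12 cytosolic heat shock proteins 3 rose and 7 fell with piericidin, 2 and 8 with antimycin, and 3 and 9 with oligomycin. The inducible Hspa1a had -2.52, -1.92 and -2.95, and the constitutive Hspa8 had -1.19, -1.16 and -1.13. The level of Hspa1a was low, with a mean of 3.53 CPM in outer and 3.36 CPM in inner wells over the series. All 8 subunits of the cytosolic chaperonin CCT rose with piericidin and with oligomycin and 7 rose with antimycin, with Cct4 at 0.43 with antimycin and 0.69 with oligomycin. Of 12 endoplasmic reticulum (ER) chaperones 4 rose and 4 fell with piericidin and with antimycin, and 2 rose and 8 fell with oligomycin. Hspa5 (BiP) rose by 2.06, 2.07 and 1.09, and Creld2 had -0.95, -0.66 and -1.40. Of 10 genes that mark mitochondrial content 3, 4 and 6 rose and 1 fell with each inhibitor, with Tomm20 at 0.65, 0.64 and 0.56 and citrate synthase Cs at -0.43, -0.41 and -0.37.

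In LbNOX cells with antimycin, where Dnaja3 fell, 8 of 9 ISR markers still rose with a median of 0.78 (46.1% of genes called, 23.3% higher and 22.9% lower). Ddit3 rose by 1.17, and Atf4 fell by 0.51 on the log2 scale. Hspa1b rose by 1.45 and Hspa1a by 1.24 there, and Hsf1 by 0.61, while Hspa8 had -1.21. In NDI1 cells with piericidin 0 genes of each list were called by edgeR, with 2 import subunits, 2 stress transcription factors, 2 ISR markers and 1 ER chaperone at an unadjusted p under 0.05, and DESeq2 called 1 ISR marker.

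Chloramphenicol for 48 h in Luc myoblasts raised 6 members and lowered 0 (8.45% of 11702 genes called, 4.83% higher). Lonp1 had 32.8 and 27.9 CPM with DMSO and 81.2 and 81.4 with chloramphenicol, a log2 fold change of 1.48 ± 0.10 (adjusted p = 5.56e-05). Hspa9 had 594 and 621 against 1065 and 1031, or 0.84 ± 0.04 (3.71e-06). Dnaja3 had 66.2 and 73.9 against 104.1 and 93.2, or 0.54 ± 0.08 (0.00395). None of these groups overlapped.

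The chaperonin changes with chloramphenicol were smaller. Hspd1 had 669.9 and 689 against 803 and 754 CPM, or 0.25 ± 0.04 (adjusted p = 0.0077), Hspe1 had 0.33 ± 0.06 (0.0102) and Trap1 0.40 ± 0.08 (0.0131). These 3 calls were lost without Luc chloramphenicol replicate 1 (0.0848, 0.0923 and 0.12) and without Luc DMSO replicate 2 (0.0512, 0.0829 and 0.052), and that of Trap1 also without Luc DMSO replicate 1 (0.0851). Clpp, Clpx, Yme1l1 and Afg3l2 had 0.11, 0.22, -0.13 and 0.20 and were not called.

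All 9 ISR markers rose with chloramphenicol, led by Trib3 (4.18) and Atf3 (2.88), as did Ddit3 (1.95), Atf5 (1.91) and Atf4 (1.11). Of the 21 co-chaperones and import subunits 0 were called by edgeR and 0 by DESeq2, with 5 at an unadjusted p under 0.05. Of 16 other proteases and scaffolds 1 rose, Immp2l (1.68). Its level was low, with a mean of 3.54 CPM in outer and 3.86 CPM in inner wells over the series. Of the ER chaperones 0 rose and 4 fell, and Hspa5 had 0.07 and was not called. These list counts are read beside the shares of all genes, of which 4.83% were higher and 3.62% lower with chloramphenicol.

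In LbNOX cells chloramphenicol raised 1 member, Hspa9, by 0.41 ± 0.04 (0.931% called, adjusted p = 0.00133), and Lonp1 had 31.7 and 33.3 against 48.4 and 45.9 CPM, or 0.57 ± 0.11 (0.0523). DESeq2 called 4 members in this comparison, and edgeR without a filter on low counts called 5. The LbNOX response was below that in Luc cells for Hspa9, by -0.43 ± 0.05 (0.014), and Lonp1, by -0.91 ± 0.15 (0.0409), where 0.53% of all genes were called. With 2 samples a group these differences depend on each library, and the Lonp1 difference was called only without Luc DMSO replicate 1, with adjusted p of 0.0907 to 0.222 without any of the other libraries. The Hspa9 difference was not called without either LbNOX chloramphenicol replicate (0.0923 and 0.0927), LbNOX DMSO replicate 2 (0.0682) or Luc chloramphenicol replicate 1 (0.104).

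The chaperonin genes were much lower once the cells had left the cell cycle. Untreated day 1 cells and myotubes differ from the Luc myoblasts also in the lentivirus and doxycycline, so state and transgene cannot be told apart, and in bulk samples fewer cells of a type and less RNA per cell cannot be told apart either. Hspd1 had 819, 781 and 778 CPM in Luc myoblasts, 192, 195 and 189 in day 1 cells and 165, 155 and 154 in myotubes. The 3 states did not overlap. Day 1 cells were lower by -2.04 ± 0.04 (adjusted p = 2.4e-27) and myotubes by -2.29 ± 0.04 (1.33e-28). Hspe1 had -1.22 ± 0.07 and -1.59 ± 0.07, Hspa9 -0.52 ± 0.03 and -0.68 ± 0.03, and Clpp -0.72 ± 0.08 and -0.65 ± 0.08.

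Against Luc myoblasts 7 members were lower and 1 higher in day 1 cells (63.6% of 12765 genes called, 32.3% lower), and 5 lower and 1 higher in myotubes (69.4% called, 33.7% lower). Clpx was the member that was higher, by 0.21 ± 0.08 and 0.24 ± 0.08, and both calls were lost when at least 1 of the replicate numbers was left out. Yme1l1 had -0.01 ± 0.05 in both. Between myotubes and day 1 cells Hspd1, Hspe1 and Hspa9 were lower in myotubes and Lonp1 and Afg3l2 higher (35.6% called). With a term for outer wells the number called in this comparison was 2, since Hspa9 (0.0621), Lonp1 (0.173) and Afg3l2 (0.429) no longer passed.

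**Figure D4:**
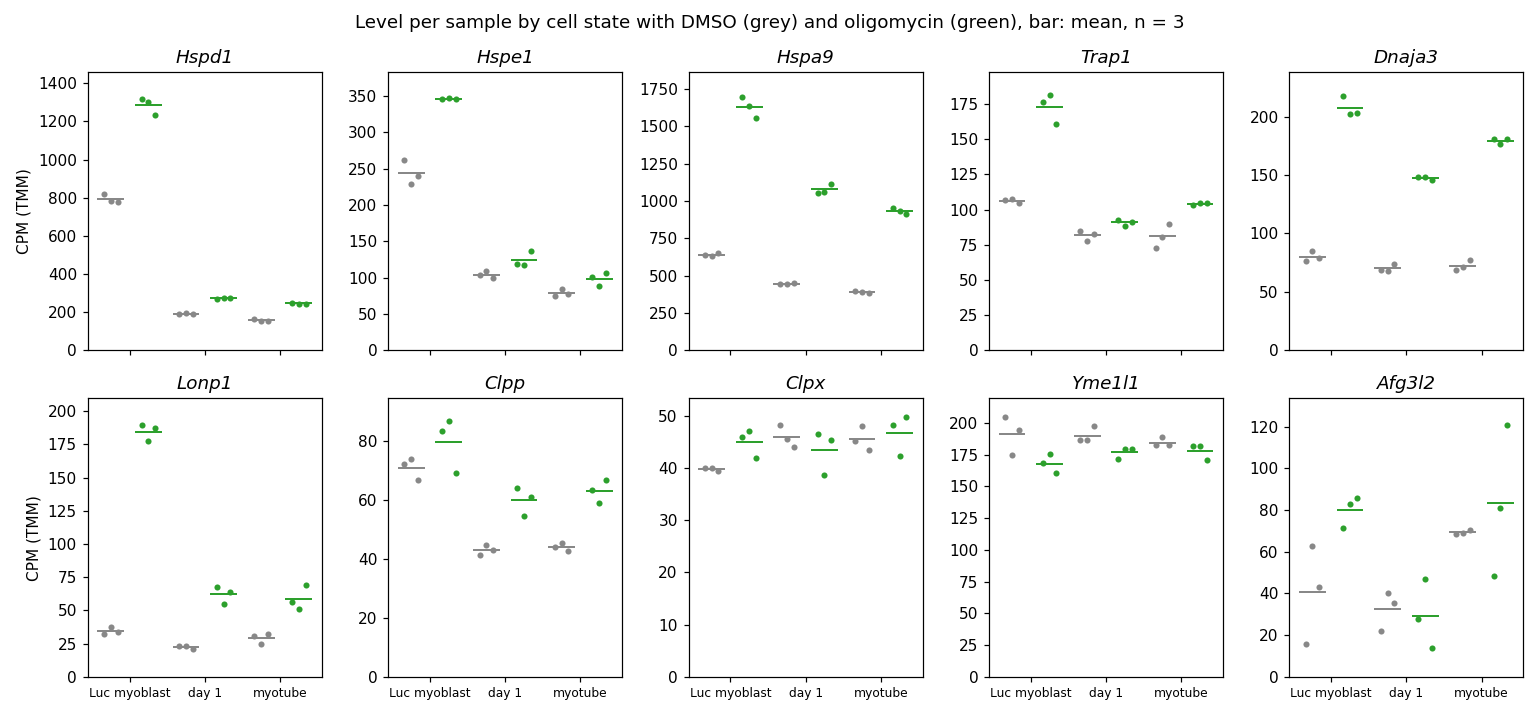
Level of each member in CPM in Luc myoblasts, day 1 cells and myotubes, with DMSO in grey and oligomycin in green; points are samples. Hspd1 with oligomycin reaches 268 to 276 CPM on day 1 and 241 to 249.8 CPM in myotubes, below the 778 to 819 CPM of untreated Luc myoblasts.

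In day 1 cells piericidin raised 3 members, Hspd1 by 0.13, Hspa9 by 0.20 and Dnaja3 by 0.24 (3.75% called, 1.98% higher), and left Lonp1 at 29.2, 24.9 and 20.7 CPM beside 23.2, 23.1 and 21.2 with DMSO. With each replicate number left out in turn 0 to 1 members were called. Oligomycin raised 7 members (21.3% called, 12% higher). Lonp1 went to 67.4, 54.7 and 64.2 CPM, a change of 1.5 ± 0.12 (adjusted p = 2.94e-11), Hspa9 changed by 1.31 ± 0.03 (1.6e-22) and Dnaja3 by 1.11 ± 0.05 (2.39e-16). The Trap1 call (0.20) was lost whichever replicate number was left out, and that of Hspe1 (0.30) without replicate 3. The piericidin response was lower than in Luc myoblasts for 7 members (46.6% called, 21.2% lower), by -2.31 ± 0.16 for Lonp1. For oligomycin 4 members responded less and 1, Clpp, more (24.9% called), with Lonp1 at -0.90 ± 0.16 and Hspa9 at -0.02 ± 0.05. The Clpp call was lost whichever replicate number was left out, that of Hspd1 without replicate 1 or 2 and that of Dnaja3 without replicate 1 or 3.

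In myotubes the complex I and III inhibitors did little to these genes and oligomycin much. Piericidin raised 2 members, Hspa9 by 0.15 ± 0.04 and Dnaja3 by 0.38 ± 0.06 (8.99% of 12491 genes called, 4.15% higher), and antimycin 3, Hspd1 by 0.21 ± 0.04, Hspa9 by 0.37 ± 0.04 and Dnaja3 by 0.54 ± 0.06 (12.9% called, 6.64% higher). The Hspa9 call with piericidin was lost without replicate 2 (0.185) or replicate 3 (0.2). Lonp1 had 30.5, 24.8 and 32.6 CPM with DMSO, 30.9, 31.9 and 27.1 with piericidin and 29.9, 31.9 and 33.6 with antimycin. These groups overlapped.

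Oligomycin raised 7 members in myotubes and lowered 0 (33.3% called, 16.9% higher). Hspa9 had 394, 392 and 386 CPM with DMSO and 954, 930 and 916 with oligomycin, a change of 1.26 ± 0.04 (adjusted p = 1.1e-17). Dnaja3 went from 68.3, 71.0 and 77.05 to 181, 176 and 181 CPM, or 1.32 ± 0.06 (2.57e-14). Hspd1 rose by 0.64 ± 0.04 (2e-11). Treated and control samples of these genes were far apart. Lonp1 rose to 56.2, 51.0 and 69.3 CPM, or 1.01 ± 0.13 (7.05e-07), and Clpp by 0.52 ± 0.08 (2.71e-05). The Hspe1 call (0.32) was lost without replicate 1 (0.0822).

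Set against Luc myoblasts, the response of myotubes was lower for 7 members with piericidin (46.5% called, 21.3% lower) and for 5 with antimycin (47.9%, 22.5% lower), led by Lonp1 at -2.44 ± 0.16 and -1.63 ± 0.16 and Hspa9 at -1.24 ± 0.05 and -0.98 ± 0.05. With oligomycin Trap1 (-0.35 ± 0.09) and Lonp1 (-1.41 ± 0.16) responded less, Clpp (0.34 ± 0.12) more (29% called), and Hspa9 differed by -0.09 ± 0.05 (0.132) and Dnaja3 by -0.06 ± 0.07 (0.551). The Clpp call was lost without replicate 1 or replicate 3, and that of Trap1 without replicate 2.

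In myotubes with oligomycin all 9 ISR markers rose, with Atf3 at 5.62 and Trib3 at 4.66, and 5 of 5 stress transcription factors, with Ddit3 at 4.06, Atf4 at 1.69, Atf5 at 0.60 and Hsf1 at 0.57. Of the co-chaperones and import subunits 5 of 21 rose, with Grpel2 at 0.48 and Chchd4 at 0.47, and 1 fell, where 16.9% of all genes rose and 33.3% were called. Of the other proteases and scaffolds 7 of 16 rose, with Immp2l at 0.84 and Htra2 at 0.62, and 1 fell. Of the ER chaperones 0 of 12 rose and 9 fell, where 16.4% of all genes fell, and Hspa5 had 0.01 and was not called.

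Oligomycin combined with a second treatment gave lower levels than oligomycin alone for most of the members, but not for all. With piericidin added 6 members were lower (20.9% called, 12.4% lower). Hspa9 had 537, 522 and 548 CPM, -0.81 ± 0.04 against oligomycin alone (adjusted p = 1.19e-13), and Lonp1 35.3, 31.6 and 30.2 CPM, or -0.86 ± 0.12 (1.11e-05). Neither gene overlapped its oligomycin group. With BAM15 added 6 members were lower (26.1% called, 14.1% lower), with Hspd1 at -0.68 ± 0.04 and Hspa9 at -0.59 ± 0.04. Lonp1 had 51.1, 49.3 and 45.4 CPM, which overlapped the oligomycin range, at -0.28 ± 0.12 (0.0971). Afg3l2 was also lower with BAM15 added once outer wells were a term, at -0.44 (0.00723).

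In 5% oxygen oligomycin gave 7 members lower and 1, Yme1l1, higher than in ordinary air (33.3% called, 16.5% lower), with Hspa9 at -0.77 ± 0.04 and Dnaja3 at -0.76 ± 0.06. The Yme1l1 call was lost whichever replicate number was left out. Within 5% oxygen, oligomycin against DMSO changed 0 members by edgeR, with 3 at an unadjusted p under 0.05 and 1 by DESeq2 (4.26% called). Hspa9 had 507, 506 and 487 CPM with DMSO in 5% oxygen and 552, 532 and 545 with oligomycin, without overlap, at 0.14 ± 0.04 (0.0541). The DMSO samples in 5% oxygen were themselves above those in air for Hspa9 (0.36 ± 0.04), Dnaja3 (0.38 ± 0.06) and Lonp1 (0.77 ± 0.13) (22.1% called). Lonp1 was at 50.2, 60.1 and 39.3 CPM there, against 24.8 to 32.6 in air.

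BAM15 alone raised Hspa9 by 0.38 ± 0.04, Dnaja3 by 0.48 ± 0.06 and Lonp1 by 0.48 ± 0.13, and lowered Hspd1 and Yme1l1 (25.4% called). Hspd1 had 142, 136 and 139.5 CPM, all below the 154.2 to 165 of the controls, a change of -0.18 ± 0.04 (adjusted p = 0.0045). The Lonp1 call was lost without replicate 1 (0.124) or replicate 2 (0.0717), that of Hspd1 without replicate 2 (0.0563), and that of Yme1l1 (-0.12, adjusted p = 0.0486) whichever replicate number was left out (0.0718 to 0.204).

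**Figure D5:**
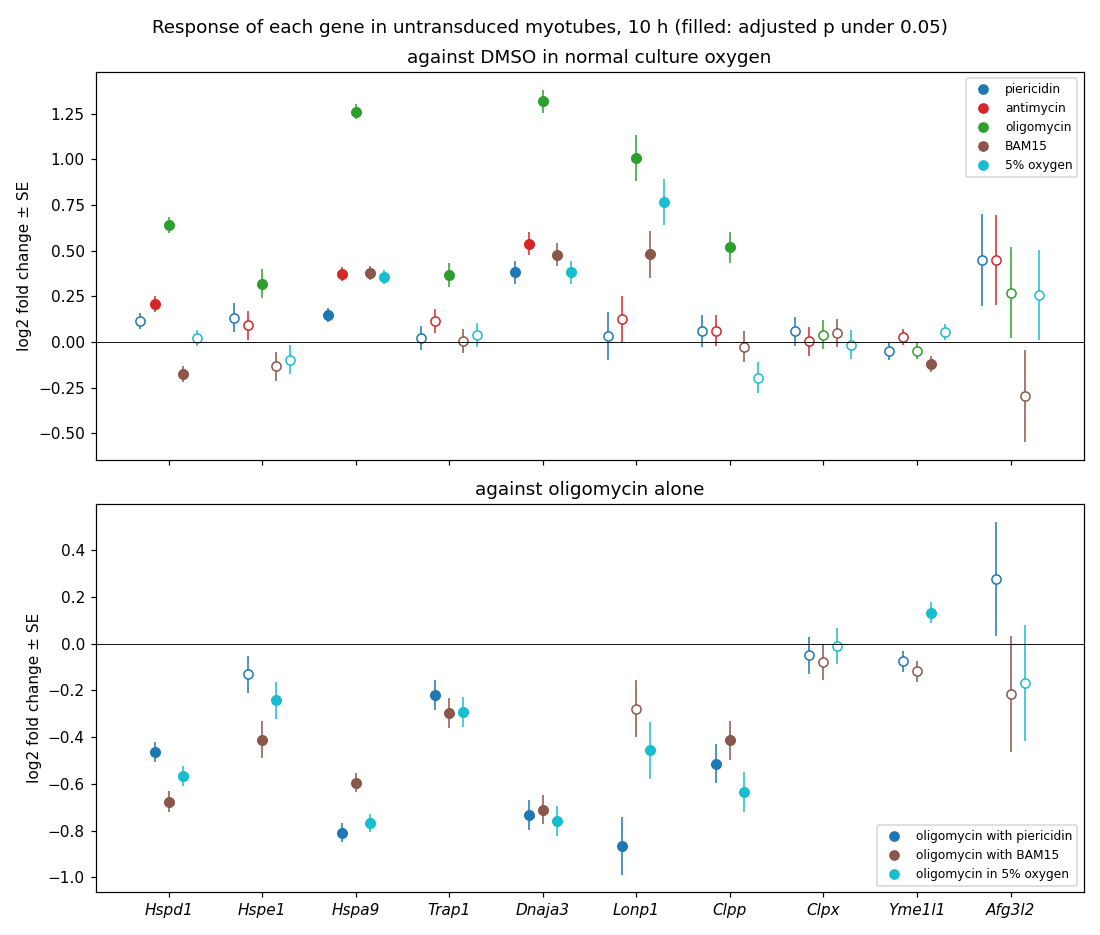
Log2 fold change with its SE of each member (x axis) in myotubes, against DMSO in the upper panel and against oligomycin alone in the lower panel; filled points passed the adjusted p of 0.05. Oligomycin stands apart in the upper panel, with Hspa9 at 1.26 and Dnaja3 at 1.32, and every added treatment brings both genes down in the lower panel, by -0.59 to -0.81 and -0.71 to -0.76.

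Adenoviral LbNOX left the members' responses in myotubes without a called difference. In GFP myotubes piericidin raised 3 members, Hspd1, Hspa9 and Dnaja3 (3.08% of 12395 genes called, 1.45% higher), though 0 to 2 were called when a replicate number was left out, and oligomycin raised 8 (25.8% called, 14% higher). In LbNOX myotubes piericidin raised 4, those 3 and Hspe1 (6.77% called, 3.4% higher), and oligomycin 8 (31.8% called, 17.2% higher). When a replicate number was left out, 5 to 8 members were called for oligomycin in GFP myotubes and 1 to 2 for piericidin in LbNOX myotubes. Hspa9 rose with oligomycin by 1.32 ± 0.05 in GFP and 1.22 ± 0.04 in LbNOX myotubes, a difference of -0.10 ± 0.06 (adjusted p = 0.974). Lonp1 had 78.1 and 80.9 CPM in GFP myotubes with oligomycin and 68.7, 82.5 and 78.1 in LbNOX myotubes, against 27.1 and 42.2, and 36.8, 45.5 and 40.8 with DMSO. The difference between the Lonp1 responses was -0.30 ± 0.23 (0.974), and that for piericidin -0.52 ± 0.23 (0.934).

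By edgeR, 0 members differed between LbNOX and GFP myotubes with DMSO (1 at an unadjusted p under 0.05, 0 by DESeq2, 0.00807% of genes called), in the response to piericidin (1 and 0, 0%) or in that to oligomycin (0 and 0, 0%). The GFP groups had 2 samples each. Afg3l2 rose with oligomycin in both, by 0.93 ± 0.26 (adjusted p = 0.0166) and 0.72 ± 0.21 (0.0178), and with a term for outer wells by 0.60 (0.00194) and 0.72 (1.6e-05).

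The members' patterns over the 13 myoblast conditions at 10 h were compared by the correlation of condition means, which share controls, plate and libraries and are given as a description. The closest pairs were Trap1 and Lonp1 (Pearson r = 0.943), Hspd1 and Hspe1 (0.941) and Hspa9 and Lonp1 (0.939), and the lowest value was that of Yme1l1 and Afg3l2 (-0.305), where Afg3l2 means vary with the number of outer wells in a condition. By ranks the order was another, led by Hspd1 and Dnaja3 (Spearman rho = 0.962) and then Hspa9 and Lonp1 (0.951). Over the 9 conditions of untransduced myotubes the closest pair was Hspa9 and Dnaja3 (0.968).

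Of the 9162 genes with at least 50 counts on average, those most like Lonp1 in myoblasts were Wars (0.993), a cytosolic tRNA synthetase, Phgdh (0.991), the first enzyme of serine synthesis and one of the 9 ISR markers, and Eif2s2 (0.990), a subunit of eIF2. Those most like Hspa9 were Heatr1, Rpl17 and Slc38a1, those most like Dnaja3 were Ddx21, AU040320 and Rcc1, and those most like Hspd1 were Dkc1, Ttc27 and Eif2s1, another eIF2 subunit that was also among the 3 most like Hspe1, with Bzw2 and Tcea1-ps1. Trap1 was closest to Blcap, Pum3 and Got1, Clpp to Zfand3, Tsc22d3 and Rrp12, and Clpx to Cotl1, Actg2 and Col18a1. Afg3l2 was closest to Glud1, Usp39 and Ajuba, but its means vary with the number of outer wells in a condition, whose part was not tested. The highest correlation of a gene with Clpx was 0.922 and that with Lonp1 0.993. Ranks in place of values gave other sets of 3 for all 10 members.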

How the data were processed

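The authors prepared Smart-seq2 libraries from polyadenylated RNA without strand information, sequenced them as paired ends, and quantified transcripts of Ensembl for GRCm38.p6 plus the transgenes with kallisto (0.44, with bias correction, after bcl2fastq 2.20.0.422, per the labels). They summarised transcripts to genes with tximport and summed both flow cells, and the deposited values are estimated counts per gene. The submitters' processing notes name mm10.

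For the values given here the estimated counts were rounded to whole numbers, the 4 transgene rows were left out, and every sample column matched a sample by name (0 columns unmapped). No pair of replicate libraries held identical values. Levels are CPM with TMM normalization over all 96 samples. Tests used edgeR 4.0.16 (quasi-likelihood, Benjamini-Hochberg over all genes tested, adjusted p under 0.05 called) in R 4.3.3, separately for 10 h myoblasts (37 samples), 48 h myoblasts (8), untransduced myotubes (27), transduced myotubes (15) and the 3 cell states together (33 samples, shared in part with the others), on genes that reached 16 counts in all replicates of some condition. Reads per gene were not corrected for plate position in the main tests. DESeq2 1.42.0, no filter, DESeq2 size factors, replicate numbers as a block, fits of only the groups compared, left-out replicates and an outer-well term were alternatives. The scripts were tested on simulated counts.

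The members and lists were chosen with earlier results of these data known. Named were all members, up to 4 called genes per list and comparison with the largest absolute log2 fold change, Atf4, Atf5, Ddit3, Hsf1, Hspa5, Hspa8, Hsp90b1 and Hsp90aa1 where of use, and the 3 genes most like each member (those for Yme1l1 are not reported here). Promoter sequences and motif shares come from RefSeq windows on GRCm38.p6 (250 bases before to 50 after a start), gene positions and transcript lengths from GENCODE. Figures were drawn with matplotlib.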

Additional observations from a re-analysis of the deposited data

Results flagged for a closer look

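The results named here were picked out because the response to the same treatment differed between cell backgrounds or states. The call was by edgeR's interaction test (adjusted p under 0.05), counted over the members. The largest difference among the called members is given with each count. Each count of members is given with the share of all genes called in the same difference, and a count near that share is not a result about the members. Against Luc myoblasts, the piericidin response of LbNOX cells differed for 8 members (44.3% of all genes called) and by -1.55 for Lonp1, their antimycin response for 7 members (51.5%) and by -1.55 for Dnaja3, and their oligomycin response for 1 member (7.98%), Hspa9, by -0.26. The piericidin response of mitoLbNOX cells differed for 8 members (42.9%) and by -1.12 for Lonp1, and their antimycin response for 2 members (31.7%) and by -0.51 for Hspa9. The piericidin response of NDI1 cells differed for 8 members (42.7%) and by -2.24 for Lonp1. The chloramphenicol response of LbNOX cells differed for 2 members (0.53%) and by -0.91 for Lonp1.

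Between cell states, the response of myotubes differed from that of Luc myoblasts for 7 members with piericidin (46.5% of all genes called, Lonp1 -2.44), for 5 members with antimycin (47.9%, Lonp1 -1.63) and for 3 members with oligomycin (29%, Lonp1 -1.41). That of day 1 cells differed for 7 members with piericidin (46.6%, Lonp1 -2.31) and for 5 members with oligomycin (24.9%, Lonp1 -0.90). Myoblasts also differ from the other states in the lentivirus and doxycycline, and the states and these cannot be told apart.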

How the results depend on the processing

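No alternative reversed a called fold change of a member or named list gene. Of the recomputed fold changes 14922 kept their side of the threshold, 693 lost the call and 144 gained it. The count of all genes called stayed within 1.5 times in 364 recomputations and moved further in 101. Counts of called members moved by more than 1.5 times as follows. With DESeq2's Wald test they were 1 instead of 0 for oligomycin within 5% oxygen and 4 instead of 1 for chloramphenicol in LbNOX cells. Without a filter on low counts, 1 member instead of 0 was called for piericidin in NDI1 cells and for LbNOX and mitoLbNOX against Luc cells with DMSO, 5 instead of 1 for chloramphenicol in LbNOX cells, 1 instead of 3 for piericidin on day 1, and, among differences of responses from Luc myoblasts, 3 instead of 5 for oligomycin on day 1 and 2 instead of 1 for oligomycin in LbNOX cells. With only the groups compared in the fit, counts were 1 instead of 3 for piericidin on day 1, 3 instead of 5 for the difference with oligomycin on day 1, 0 instead of 3 for piericidin in GFP myotubes, 1 instead of 2 for the difference with antimycin in mitoLbNOX cells and 4 instead of 7 for piericidin in LbNOX myoblasts. With the outer-well term they were 2 instead of 1 for the difference with oligomycin in LbNOX cells, 4 instead of 2 for that with antimycin in mitoLbNOX cells and 2 instead of 5 for myotubes against day 1 cells. DESeq2 size factors moved none of these counts by that much, but moved 53 of 350 condition levels by more than the SD. Rank correlation changed the 3 most similar genes of all 10 members.

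Leaving out replicates gave these lowest and highest counts of members called, given for part of the comparisons. In Luc myoblasts piericidin gave 8 in each case instead of 9, antimycin 6 to 8 beside 8, and oligomycin 6 to 8 instead of 9. Antimycin in LbNOX myoblasts gave 4 to 6 beside 6, and oligomycin on day 1 gave 5 to 6 instead of 7. Treatments against DMSO gave 3 to 6 for chloramphenicol in Luc and 1 to 2 in LbNOX myoblasts, 2 to 4 for piericidin in LbNOX myoblasts, 0 to 1 on day 1, 1 to 2 in myotubes, 0 to 2 in GFP and 1 to 2 in LbNOX myotubes, 2 to 4 for BAM15, and 5 to 8 for oligomycin in GFP myotubes. Oligomycin in 5% oxygen against oligomycin in air gave 5 to 7, myotubes against day 1 cells 3 to 5, and NDI1 against Luc cells with DMSO 0 to 1. Differences of responses gave 0 to 2 for chloramphenicol, 4 to 6 for antimycin and 0 to 1 for oligomycin in LbNOX cells, 1 to 2 for antimycin in mitoLbNOX cells and 2 to 4 for oligomycin on day 1. The cause of these changes was not tested, beyond there being fewer samples. Where an arm was left with 1 sample, that sample was assumed to vary like the other groups.

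Replicate numbers did not pair the samples, since residuals of samples with the same number had mean correlations of -0.04 to 0.02 in the 5 fits. With the replicate block, the number of members called was 1 instead of 2 for the difference with chloramphenicol and 2 instead of 1 for the difference with oligomycin in LbNOX cells, and no other count moved by more than 1.5 times. At 2 or 3 samples a group, small changes of the less abundant members such as Clpx, at about 40 CPM, are hard to detect.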
